A study of Mus musculus with 69 samples.

Results

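Zscan4b, Zscan4c, Zscan4d, Zscan4f, Tcstv3 and Zfp352 mark the 2-cell-like state of mouse embryonic stem (mES) cells. They were taken by symbol, as 6 of the 55367 symbols of the count table, and each was found and passed the filter on low counts. RNA was sequenced from E14tg2A mES cells in serum with LIF and from cells sorted by FACS from mosaic gastruloids, aggregates of mES cells that pass through stages like those of the early embryo. The 69 libraries form 23 groups of 3 replicates. At 0 h the groups are 3 clones. WT-mCherry carries an EF1α-driven H2B–mCherry reporter, WT-emiRFP a CAG-driven H2B–emiRFP670 reporter, and p53KO-emiRFP is a daughter clone of WT-emiRFP with a homozygous frameshift in Trp53, the gene of p53. WT+WT gastruloids were seeded with 150 WT-mCherry and 150 WT-emiRFP cells, WT+p53KO gastruloids with 150 WT-mCherry and 25 p53KO-emiRFP cells. The populations were sorted at 48, 72, 96, 120 and 144 h, and all gastruloids kept past 48 h received CHIR, an activator of Wnt signalling, from then until 72 h. The knockout is 1 clone, so loss of p53 cannot be told apart from other differences between the p53KO clone and its parent, and the WT clones differ in both clone and reporter. In gastruloids the p53KO-emiRFP and WT-emiRFP cells also came from different kinds of aggregate, seeded with 25 and 150 of these cells, so genotype, neighbours and seeding number cannot be told apart there.

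In the early mouse embryo, the 2-cell stage is when the zygotic genome is first strongly transcribed, and Zscan4 genes belong to that burst. In cultures of mES cells, a small, changing subset of cells turns the same genes on for a short time and then returns to the common state. ZSCAN4 proteins hold a SCAN domain and zinc fingers and are known for telomere lengthening and genome stability. Tcstv3 belongs to another gene family of the 2-cell stage that has been tied to telomere length, and Zfp352 encodes a zinc finger protein of the same stage. The transcription factor DUX is a known activator of this programme. In bulk RNA, fewer cells in the state and less RNA per cell cannot be told apart.

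On GRCm38 the Zscan4 members lie in 1 cluster on chromosome 7. Zscan4b is at chr7:10900740-10905050 and Zscan4d at chr7:11161374-11166159, both on the minus strand. Zscan4c is at chr7:11005745-11010547 and Zscan4f at chr7:11397915-11402318, both on the plus strand. Tcstv3 is at chr13:120316878-120318178 and Zfp352 at chr4:90218820-90225702, both on the plus strand. The genes of the cluster are near copies. Their transcripts share 96.6 to 99.5% of aligned bases, and of all 150-base windows of a transcript, 86.2% of those of Zscan4f, 68.4% of Zscan4b, 61.0% of Zscan4c and 13.0% of Zscan4d occur in another gene, while Tcstv3 and Zfp352 share none. The authors counted uniquely mapped reads, so a read from a shared stretch could be lost, and the split of reads between these copies is uncertain.

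The promoters of these copies are shown because the genes moved together in the data, and that of Zfp352 because it followed them less closely at 0 h. The sequences are from RefSeq on GRCm38.p6, where 5 of the 6 members had an entry. Each is 130 bases, 5′ to 3′ on the strand of the gene, and capitals mark the TATA box TATAAA. The windows are chr7:10905052-10905181 (minus strand) for Zscan4b, chr7:11005591-11005720 (plus) for Zscan4c, chr7:11166184-11166313 (minus) for Zscan4d, chr7:11397784-11397913 (plus) for Zscan4f and chr4:90218690-90218819 (plus) for Zfp352.
Zscan4b: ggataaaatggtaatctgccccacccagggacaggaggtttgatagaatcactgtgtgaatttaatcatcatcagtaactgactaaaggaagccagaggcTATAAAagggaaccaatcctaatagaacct
Zscan4c: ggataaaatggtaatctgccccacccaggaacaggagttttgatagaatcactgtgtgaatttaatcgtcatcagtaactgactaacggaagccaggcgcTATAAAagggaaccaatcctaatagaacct
Zscan4d: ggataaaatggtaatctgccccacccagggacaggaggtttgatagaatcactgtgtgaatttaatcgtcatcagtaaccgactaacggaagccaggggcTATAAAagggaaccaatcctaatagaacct
Zscan4f: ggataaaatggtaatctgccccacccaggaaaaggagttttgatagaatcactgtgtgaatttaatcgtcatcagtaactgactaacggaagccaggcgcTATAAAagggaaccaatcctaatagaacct
Zfp352: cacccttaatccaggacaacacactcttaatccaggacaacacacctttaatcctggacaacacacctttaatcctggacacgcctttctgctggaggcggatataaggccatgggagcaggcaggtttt
In the 4 Zscan4 windows 122 of 130 positions hold the same base, and pairs differ at 1 (Zscan4c and Zscan4f) to 7 (Zscan4b and Zscan4f) positions. The first base of the box lies 31 bases before the annotated start in Zscan4b and Zscan4f, 54 in Zscan4c and 65 in Zscan4d. Over all 32851 promoters of 300 bases (250 before and 50 after the start, both strands), 13.6% hold TATAAA. The letters of the DUX motif (TGATT and AATCA with 1 base between them, in 0.0335% of promoters) and of the ZSCAN4 motif (TGCACAC, in 4.40%) were not in the promoters of these 5 members. Within its 300 bases the promoter of Zfp352 holds the unit GGACAACACAC 8 times, 3 of them in the window printed above, and the 300-base promoters of the 4 Zscan4 members do not hold it.

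The libraries held 26722541 to 72981570 counts (median 53098728), and values below are normalized counts, which are counts divided by a median-of-ratios size factor. Trp53 followed the labels. It had 20697 to 27511 normalized counts in the WT clones and 2331 to 2589 in p53KO-emiRFP cells at 0 h, a log2 fold change of -3.36 (edgeR adjusted p = 6.0e-10), and one of -3.14 to -3.58 in p53KO-emiRFP gastruloid cells against WT-emiRFP cells. The mES cells expressed the pluripotency markers Pou5f1, Sox2, Nanog, Utf1 and Zfp42, whose summed normalized count was 137860 to 168876 in the 9 libraries. Nothing in the labels says that replicates came from separate cultures, though the methods of the study speak of 3 separate experiments.

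At 0 h the members were highest in WT-mCherry cells. For the Zscan4 genes WT-emiRFP cells came next and p53KO-emiRFP cells last, while for Tcstv3 and Zfp352 the libraries of the emiRFP clones overlapped. Zscan4c, the member with the highest mean count per kilobase in both WT clones, had 3994, 3037 and 4306 normalized counts in replicates 1 to 3 of WT-mCherry, 2197, 1168 and 1441 in WT-emiRFP and 936, 823 and 700.0 in p53KO-emiRFP. The ranges of the 3 clones did not overlap. Zscan4d had 2978, 2516 and 3509 normalized counts in WT-mCherry, 1656, 950.0 and 1187 in WT-emiRFP and 965, 795 and 755 in p53KO-emiRFP. WT-mCherry stood apart, and the highest p53KO library lay just above the lowest WT-emiRFP library.

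Zscan4f had 2436, 1966 and 2136 normalized counts in WT-mCherry, 1176, 653 and 956 in WT-emiRFP and 682, 511 and 463 in p53KO-emiRFP. Zscan4b, the member of the cluster with the lowest counts, had 1129, 883 and 1013 in WT-mCherry, 477, 389 and 484 in WT-emiRFP and 328, 257 and 238 in p53KO-emiRFP. All 3 clones were separate for Zscan4b, and for Zscan4f the emiRFP clones overlapped in 1 library. Tcstv3 had 219, 145 and 157 normalized counts in WT-mCherry, 129.7, 41.8 and 71.8 in WT-emiRFP and 89.2, 53.5 and 57.0 in p53KO-emiRFP. Zfp352 had 229, 176 and 132 in WT-mCherry, 122, 56.4 and 65.5 in WT-emiRFP and 97.5, 80.2 and 91.0 in p53KO-emiRFP. For both, every WT-mCherry library was above every emiRFP library, and the WT-emiRFP libraries spread to both sides of the p53KO ones.

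**Figure D1:**
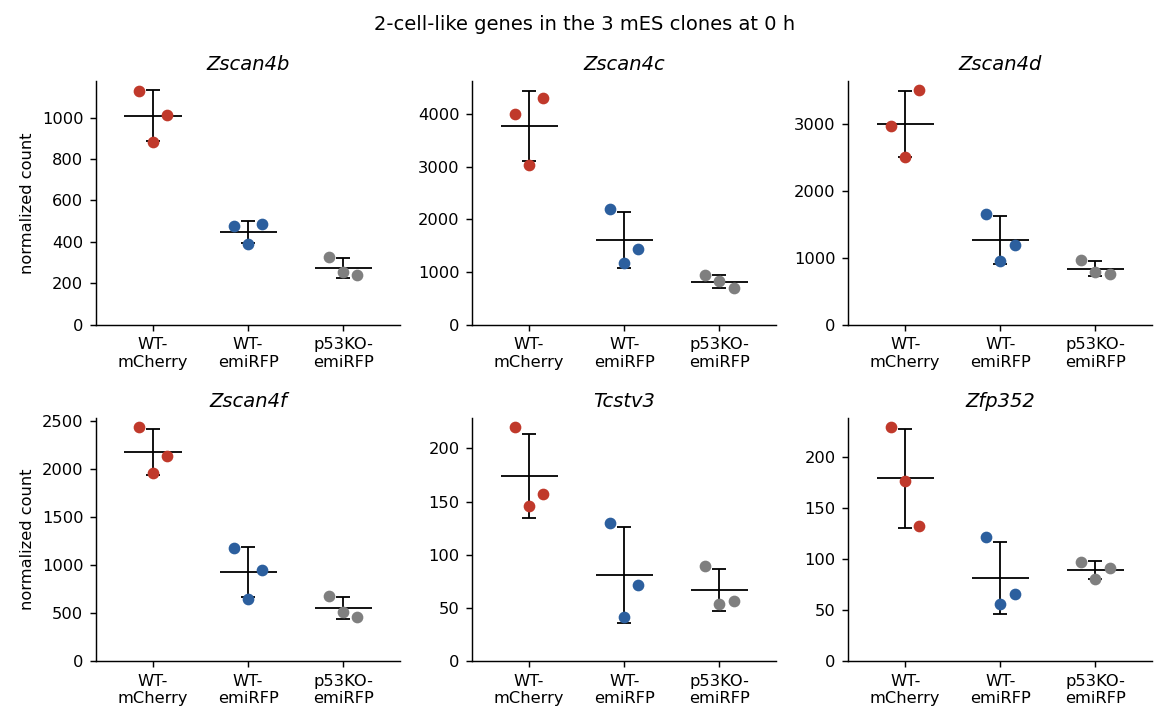
Normalized counts (linear axes from 0) of the 6 genes in the 3 replicates of each mES clone at 0 h, with points for libraries and the mean ± SD of each clone. WT-mCherry lies above the other clones for every gene, and p53KO-emiRFP lies below WT-emiRFP without overlap for Zscan4b and Zscan4c.

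Per kilobase of transcript in WT-mCherry, the mean normalized count was 1660.2 ± 290.5 (SD, n = 3) for Zscan4c, 1321 ± 219 for Zscan4d, 1113 ± 122 for Zscan4f, 559.6 ± 68.2 for Zscan4b, 223 ± 51.1 for Tcstv3 and 78.7 ± 21.2 for Zfp352. The ranges of Zscan4c and Zscan4d overlapped, as did those of Zscan4d and Zscan4f. In p53KO-emiRFP Zscan4d (369 ± 49.1) and Zscan4c (360.1 ± 51.8) had like counts per kilobase. The part of a transcript shared with another gene, where reads could be lost, ran from 13.0% in Zscan4d to 86.2% in Zscan4f. The order of the Zscan4 copies by level is thus uncertain. Between the replicates of WT-emiRFP, 5 of the 6 members varied more than the median gene, which had an SD of 0.19 on the log2 scale. Tcstv3 had 0.81, Zfp352 0.58 and Zscan4c 0.46, while Zscan4b had 0.18. In that clone replicate 1 was the highest for every member but Zscan4b, and replicate 2 the lowest for every member.

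The comparison of WT-emiRFP with its p53KO daughter asks what differs with the mutation. Of the 6 members, 3 were lower in p53KO-emiRFP by edgeR's quasi-likelihood test with Benjamini-Hochberg adjustment over 18395 genes, against 4.16% of all genes tested. These were Zscan4c with a log2 fold change of -0.97 ± 0.20 (SE, adjusted p = 0.012), Zscan4f with -0.75 ± 0.19 (0.034) and Zscan4b with -0.71 ± 0.15 (0.012). Zscan4d had -0.59 ± 0.18 (0.076). Tcstv3 had -0.30 ± 0.35 (0.73) and Zfp352 0.12 ± 0.28 (0.88). The median over the members was -0.65, and over all genes -0.01. For 2 members every p53KO library was below every WT-emiRFP library, which held for 14.1% of all genes. Shares of genes whose groups do not overlap are given over genes with a mean of at least 10 normalized counts in the compared groups.

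The calls between the emiRFP clones depended on single libraries, while the sign of the 4 Zscan4 genes did not change. Same-numbered libraries of these clones deviated together, and with the replicate number as a block Zscan4d passed as well (edgeR adjusted p = 0.023), which makes 4 of 6. Without replicate number 2 in both clones 1 member passed, and without number 3 none. Without p53KO-emiRFP replicate 2 alone, or without its replicate 3, no member passed, and the edgeR adjusted p of Zscan4c was 0.052 and 0.073. Without WT-emiRFP replicate 1, in which the members were highest, Zscan4b and Zscan4c still passed and Zscan4f had an adjusted p of 0.07. Without WT-emiRFP replicate 3 Zscan4f had 0.06. The log2 fold change of Zscan4c stayed between -0.87 and -0.97 without either p53KO library. The single libraries, unlike the replicate numbers, were left out after the data were seen.

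The WT clones differed from each other as well. Of the 6 members, 5 were higher in WT-mCherry than in WT-emiRFP, against 4.51% of all genes, by 1.14 to 1.24 on the log2 scale. Zscan4d had 1.24 ± 0.18 (edgeR adjusted p = 0.0014), Zscan4c 1.23 ± 0.20 (0.0026), Zscan4f 1.23 ± 0.19 (0.0019), Zscan4b 1.16 ± 0.15 (5.3e-04) and Zfp352 1.14 ± 0.27 (0.019). Tcstv3 had a change of like size with a wider error, 1.09 ± 0.33 (0.051). The median of the members was 1.20, and of all genes 0.01, and every member's ranges were apart, as for 14.9% of all genes. Zfp352 did not pass without WT-emiRFP replicate 2 (0.075) or without WT-mCherry replicate 1 (0.092), while Tcstv3 passed without WT-emiRFP replicate 1, with 1.61 ± 0.29 (0.0031).

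Between p53KO-emiRFP and WT-mCherry, which differ in genotype, clone and reporter, all 6 members were lower in p53KO-emiRFP, against 10.8% of all genes. The edgeR log2 fold change was -2.20 ± 0.21 (adjusted p = 1.1e-05) for Zscan4c, -1.98 ± 0.20 (1.7e-05) for Zscan4f, -1.88 ± 0.15 (3.3e-06) for Zscan4b and -1.84 ± 0.19 (1.9e-05) for Zscan4d. It was -1.39 ± 0.34 (0.011) for Tcstv3 and -1.02 ± 0.27 (0.018) for Zfp352. The ranges of all 6 were apart, as for 21.5% of all genes. Tcstv3 and Zfp352 lost their calls without p53KO-emiRFP replicate 2 (0.057 and 0.077), without its replicate 3 (0.052 and 0.056) and without WT-mCherry replicate 1 (0.056 and 0.094).

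The members followed each other across the 9 mES libraries. Pearson's r of log2(normalized count + 1) was 0.974 to 0.990 between Zscan4 genes and 0.857 to 0.915 between Tcstv3 and a Zscan4 gene. Zfp352 correlated with Tcstv3 at 0.926 and with the Zscan4 genes at 0.742 to 0.800. After the clone means were taken away, r was 0.978 between Zscan4c and Zscan4d, 0.961 between Tcstv3 and Zscan4f, and 0.449 between Zfp352 and Zscan4b. These values share libraries and size factors, and those between Zscan4 genes may share reads.

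By the same measure, the genes most like the mean of the members over the 9 libraries were Usp17le (r = 0.998), Usp17la, Gm5662, Kdm4dl, Gm5788, Usp17ld, Eif4a3l2, Gm2016, Map3k8 and Gm2022 (0.984). Usp17le had a mean of 1572 normalized counts in WT-mCherry, 812 in WT-emiRFP and 589 in p53KO-emiRFP. In the 60 gastruloid libraries, 9 of these 10 had r between 0.918 and 0.984 with the members, whereas Map3k8 had -0.54. The share of all genes with such values was not taken there, where at least 81.0% of genes changed with time in each population. Over the 9 mES libraries, 34 of 39 ranked genes from a list of other Zscan4 copies and 2-cell-like genes had r above 0.9 (median 0.966), against 1.84% of 17814 genes.

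That list holds 50 genes, among them Zscan4a, Zscan4e, Zscan4-ps1, Zscan4-ps2, Zscan4-ps3, Usp17l genes and Tdpoz genes. At 0 h 40 were tested, and 12 were lower in p53KO-emiRFP than in WT-emiRFP and none higher, with a median of -0.57. Among these 12 the largest falls were those of Ddit4l, an inhibitor of mTOR signalling, at -2.49 ± 0.24 (edgeR adjusted p = 3.4e-05), Zscan4-ps1 at -1.40 ± 0.21 (0.0013), Gm13119 at -1.39 ± 0.18 (5.1e-04), Zscan4a at -1.38 ± 0.22 (0.0018) and Zscan4-ps3 at -1.17 ± 0.20 (0.0029). In WT-mCherry against WT-emiRFP, 29 of the 40 were higher and none lower (median 1.01), led by AF067063 at 1.62 ± 0.41 (0.025), Gm5662 at 1.47 ± 0.19 (5.7e-04) and Gm2016 at 1.44 ± 0.18 (5.3e-04). In p53KO-emiRFP against WT-mCherry 36 were lower (median -1.67), led by Ddit4l at -3.52 ± 0.24 (7.6e-07) and Zscan4a at -2.63 ± 0.22 (4.8e-06). By its medians the list was thus ordered over the clones as the members were. Between the emiRFP clones AF067063 (1.08), Tdpoz4 (0.47), Abcb5 (0.14) and Spz1 (0.039) pointed the other way, and none of these passed.

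Of 5 known activators of the state, Duxf3, a copy of Dux, had at most 1 count in any mES library and was not tested. Dppa2, Dppa4 and Nelfa were tested and did not pass in the 3 comparisons. Tbx3, a naive pluripotency factor linked to this state, was the exception. It was lower in p53KO-emiRFP than in WT-emiRFP with a log2 fold change of -0.61 ± 0.09 (edgeR adjusted p = 9.7e-04), and higher in WT-mCherry than in WT-emiRFP by 0.55 ± 0.09 (0.0024). Of 26 repressors, which include chromatin assembly, Polycomb and heterochromatin factors, none passed between the emiRFP clones. L3mbtl2 (-0.32 ± 0.09, 0.04) and Chaf1b (-0.32 ± 0.10, 0.0494) were lower in WT-mCherry than in WT-emiRFP. In p53KO-emiRFP against WT-mCherry, Pcgf6 and L3mbtl2 (both 0.34) and Chaf1b (0.31) were higher and Trim28 (-0.37) lower.

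Of 12 telomere maintenance genes, Tert, the catalytic subunit of telomerase, was lower in p53KO-emiRFP than in WT-emiRFP (-0.45 ± 0.11, edgeR adjusted p = 0.03) and than in WT-mCherry (-0.41 ± 0.11, 0.021). Acd, a shelterin gene, was lower in WT-mCherry than in WT-emiRFP (-0.46 ± 0.09, 0.0081) and higher in p53KO-emiRFP than in WT-mCherry (0.35 ± 0.09, 0.016). The other 10 did not pass in the 3 comparisons.

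**Figure D2:**
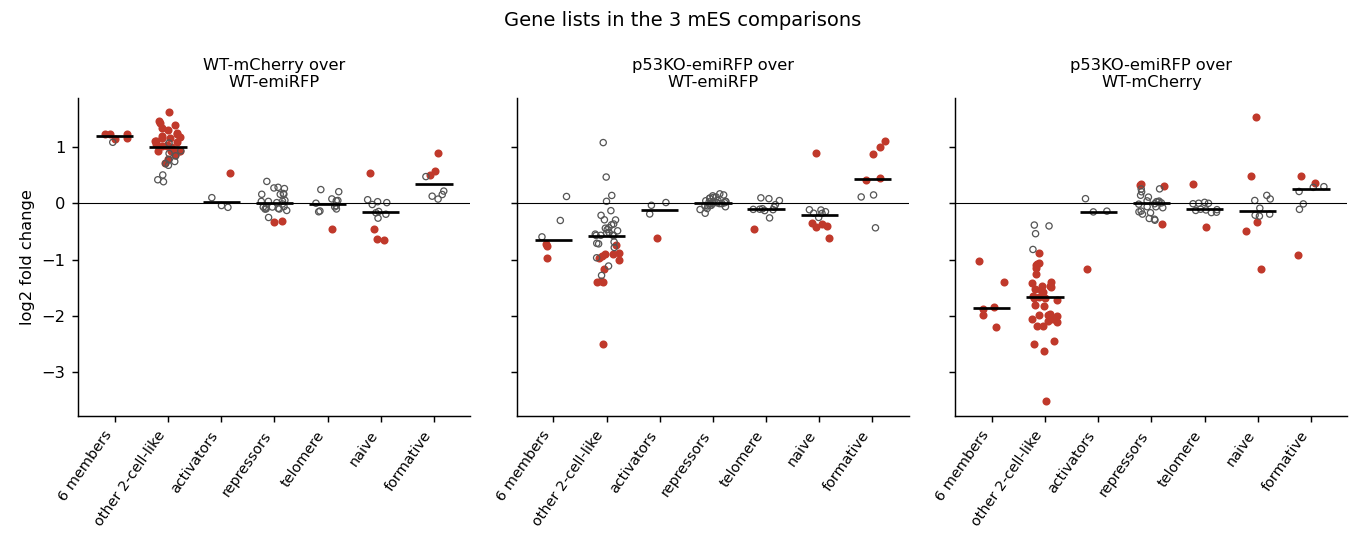
Log2 fold changes from edgeR at 0 h of the members and of 6 gene lists in the 3 comparisons of clones, with each gene as a point (filled where its adjusted p is under 0.05) and a line at the median of each list. The medians of the members and of the other 2-cell-like genes lie on the same side of 0 in each comparison, and those of the repressors and telomere genes lie near 0.

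Other genes also moved with the clones at 0 h. Of 12 naive pluripotency genes, 5 were lower in p53KO-emiRFP than in WT-emiRFP, Tbx3, Nanog (-0.42 ± 0.08, edgeR adjusted p = 0.0073), Nr0b1, Prdm14 and Klf4, while Dppa3 was higher (0.91 ± 0.17, 0.0057). Of 8 formative genes, which rise as cells leave the naive state, 5 were higher, led by Fgf5 (1.12 ± 0.23, 0.011) and Otx2 (1.00 ± 0.13, 3.7e-04). The summed naive level was 197070 to 207489 normalized counts in p53KO-emiRFP and 225142 to 244957 in both WT clones. In WT-mCherry against WT-emiRFP the formative genes Fgf5 (0.91), Pou3f1 (0.58) and Otx2 (0.50) were higher too. Of the naive genes, Dppa3 (-0.64), Tcl1 (-0.64) and Nr0b1 (-0.45) were lower there and Tbx3 (0.55) was higher. Markers of primitive endoderm, a cell type that mES cultures can hold, were lower in p53KO-emiRFP, 5 of 8 against WT-emiRFP, led by Sox17 (-2.78 ± 0.27, 4.2e-05) and Gata6 (-1.60 ± 0.27, 0.0031). Their summed level was 5462 to 6618 normalized counts in p53KO-emiRFP, 8916 to 10067 in WT-emiRFP and 9438 to 9847 in WT-mCherry. Between the WT clones, whose sums overlap, Dab2 (0.74 ± 0.16, 0.012) and Pdgfra (0.71 ± 0.16, 0.015) were higher in WT-mCherry. Of 8 trophoblast markers, 3 were higher and 1 lower in p53KO-emiRFP than in WT-emiRFP, and Ascl2 (0.80), Hand1 (0.74) and Krt18 (0.65) were higher and Plet1 (-0.59) lower in WT-mCherry than in WT-emiRFP. Of 5 tested mesendoderm markers none passed between the emiRFP clones or between the WT clones. No marker of these lists was at 0 in all libraries of a clone. The p53 targets followed the genotype, with 8 of 8 lower in p53KO-emiRFP than in WT-emiRFP (median -2.20), and in WT-mCherry against WT-emiRFP 1 of 8 was higher. The part of these cells and genes in the result was not tested.

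From 0 to 48 h all 6 members fell in each clone. This step took the cells from serum with LIF to aggregates in another medium, and only the gastruloid cells are labelled as sorted. These differences cannot be told apart. The share of all 21121 genes tested that fell was 32.1% in WT-emiRFP, 30.3% in WT-mCherry and 31.2% in p53KO-emiRFP. Zscan4c fell by 2.50 ± 0.24 on the log2 scale in WT-emiRFP (edgeR adjusted p = 1.6e-13), by 2.38 ± 0.23 in WT-mCherry (1.8e-13) and by 2.45 ± 0.26 in p53KO-emiRFP (3.1e-12). The members ranged from -1.88 to -2.88 in WT-emiRFP, from -1.77 to -2.44 in WT-mCherry and from -2.01 to -2.73 in p53KO-emiRFP, and Tcstv3 fell the most in each. The log2 change in p53KO-emiRFP minus that in WT-emiRFP was between -0.38 ± 0.40 and 0.34 ± 0.55. By edgeR 0 of 6 passed for this difference, also at an unadjusted p under 0.05, and 0 by DESeq2, where 5.99% of all genes passed. The 12 naive genes fell as well, each in every clone.

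In WT cells the means of the members were lowest at 96 h. The steps from 48 to 72 h and from 72 to 96 h were not tested one by one. Zscan4c in WT-emiRFP had 292, 315 and 241 normalized counts at 48 h, 119, 154 and 144 at 72 h, then 118, 75.3 and 61.8 at 96 h. It had 438, 343 and 343 at 120 h and 1304, 815 and 996 at 144 h. The libraries of 144 h were thus all above those of the 4 earlier times. WT-mCherry beside WT cells took the same course, from 784, 762 and 628 at 48 h through 109.9, 110.1 and 65.7 at 96 h to 1410.4, 1166 and 938 at 144 h. Over the 5 times each of the 6 members changed in every population by edgeR's test of any change, as did 83.4% of genes in WT-emiRFP, 81.0% in WT-mCherry beside WT cells, 84.3% in WT-mCherry beside p53KO cells and 81.5% in p53KO-emiRFP.

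**Figure D3:**
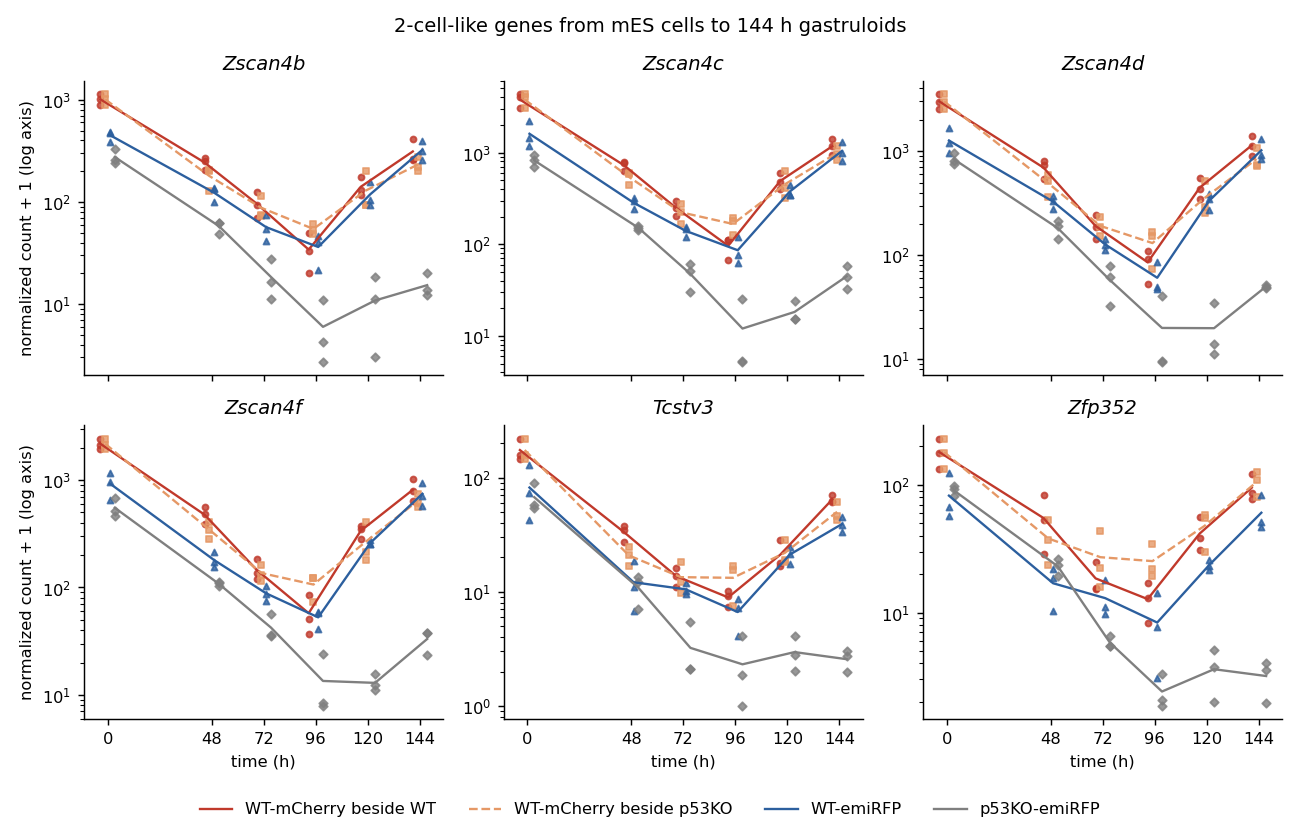
Normalized count + 1 (log axes) of the 6 genes against time in h, in the mES clones at 0 h and the sorted populations, with a point for each library and lines through the means; both WT-mCherry lines start from the same clone at 0 h. The means of WT populations are lowest at 96 h, and those of p53KO-emiRFP lie below them from 72 h on.

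The contrasts of 96 with 144 h and those at single times were added after the data were seen. From 96 to 144 h all 6 members rose in WT-emiRFP, by 2.72 to 4.07 on the log2 scale, against 31.3% of all genes that rose. Zscan4d had the steepest rise, 4.07 ± 0.33 (edgeR adjusted p = 2.4e-16), and Tcstv3 the least, 2.72 ± 0.40 (4.0e-08). All 6 rose by 3.00 to 3.87 in WT-mCherry beside WT cells (28.2% of genes) and by at least 2.01 in WT-mCherry beside p53KO cells (28.9%). Of the other 40 2-cell-like genes tested, 39 rose and 1 fell in both populations of WT+WT gastruloids. The naive pluripotency genes rose too, 12 of 12 in WT-emiRFP with a median of 1.45, less than the 3.30 of the 2-cell-like list.

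In p53KO-emiRFP cells the levels from 96 h on were low. Zscan4c had 150.4, 143 and 157 normalized counts at 48 h, 49.7, 60.5 and 29.1 at 72 h, then 24.6, 4.26 and 4.31 at 96 h. It had 14.3, 14.5 and 23.1 at 120 h and 31.9, 43.1 and 56.3 at 144 h. At 96 h replicate 1 stood well above the others, and at 144 h the highest library was below every WT library at that time. From 96 to 144 h 3 of 6 members rose, Zscan4c by 1.85 ± 0.49 (edgeR adjusted p = 0.0012), Zscan4d by 1.27 ± 0.49 (0.025) and Zscan4f by 1.27 ± 0.46 (0.018), against 28.0% of all genes. This count rested on single libraries, since 1 member passed without replicate 2 or without replicate 3 of 96 h, and none without replicate number 3 at both times. The study states that the purity of these cells was not checked after sorting. In WT-mCherry cells of the same gastruloids the members summed to 491 ± 127 normalized counts (SD) at 96 h and 2849.6 ± 505 at 144 h. The sums in p53KO-emiRFP were 50.3 ± 45.7 and 143 ± 19.5. The part of RNA carried over from WT-mCherry cells in these low values was not tested.

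Tcstv3 and Zfp352 came close to their floor in p53KO-emiRFP cells. In p53KO-emiRFP Tcstv3 at 96 h had raw counts of 4, 0 and 1, followed by 3, 2 and 1 (120 h) and 2, 2 and 1 (144 h). Zfp352 had 3, 1 and 1, then 4, 3 and 1, then 3, 3 and 1. At this depth their changes from 96 to 144 h (0.09 ± 0.94 and 0.54 ± 1.08) could not be resolved.

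Averaged over the 5 times, p53KO-emiRFP cells were lower than WT-emiRFP cells for all 6 members, against 26.8% of all genes, with log2 fold changes from -2.17 ± 0.29 for Zfp352 to -2.86 ± 0.15 for Zscan4c (edgeR adjusted p = 4.8e-09 and 1.5e-23) and a median of -2.47. At single times the values were further from 0 at the end of the course than at its start. At 48 h 3 of 6 members were lower (8.01% of all genes), namely Zscan4b (-1.09 ± 0.32, 0.012), Zscan4c (-0.91 ± 0.27, 0.014) and Zscan4d (-0.84 ± 0.30, 0.048). At 72 h 5 were lower (12.8%), all but Zfp352, with log2 fold changes from -1.06 to -1.95. At 96 h 5 were lower (11.4%), all but Tcstv3, from -1.57 to -2.83. With the replicate number as a block Zscan4f also passed at 48 h (0.011) and Tcstv3 at 96 h (0.026).

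At 120 h all 6 were lower (24.2% of all genes), from -3.06 ± 0.62 for Zfp352 to -4.43 ± 0.36 for Zscan4c. At 144 h all 6 were lower (31.7%), from -4.37 ± 0.33 for Zscan4d to -4.69 ± 0.54 for Zfp352. For the 4 Zscan4 genes at 144 h this was a 20.7- to 23.9-fold difference, and the values of Tcstv3 and Zfp352 rest on the few counts above. Each p53KO library was below each WT-emiRFP library for all 6 members at 120 h, as for 26.8% of all genes, and at 144 h, as for 34.8%. The calls at 120 and 144 h did not change under the alternatives. At 48 h none passed without replicate number 2. At 72 h 3 passed without number 2 and 2 without number 3, and at 96 h 3 without number 2. Leaving out p53KO-emiRFP replicate 2 or 3 at 96 h alone also left 3. The size at 96 h depends on p53KO-emiRFP replicate 1, in which the members were highest: without it Zscan4c had -4.29 ± 0.60 (edgeR adjusted p = 1.7e-07) in place of -2.83 ± 0.44 and Zscan4d -2.80 ± 0.62 (6.9e-04) in place of -1.57 ± 0.47, and Tcstv3 passed (0.021) while Zfp352 did not (0.066).

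**Figure D4:**
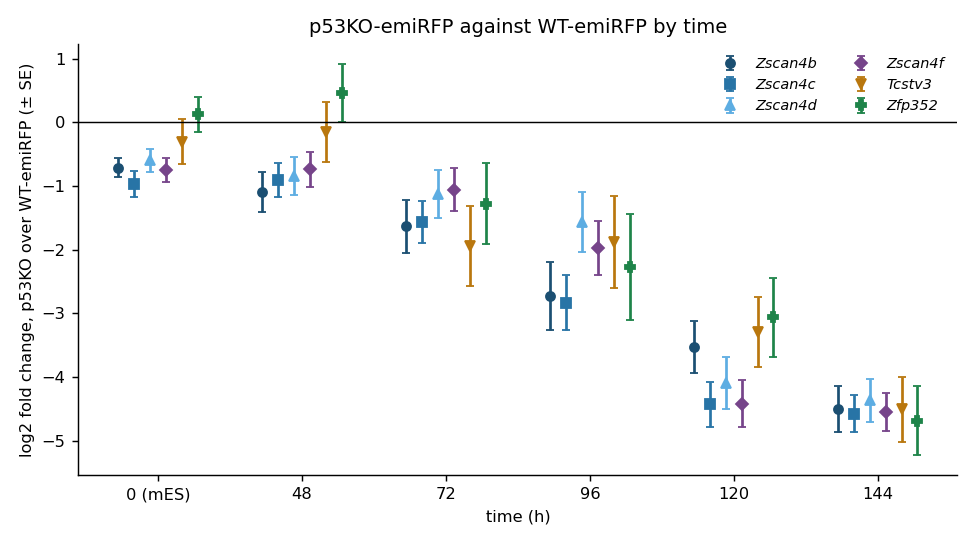
Log2 fold change of p53KO-emiRFP against WT-emiRFP for each of the 6 genes at 0, 48, 72, 96, 120 and 144 h, with standard errors from edgeR. The values lie between -1.09 and 0.46 up to 48 h and between -4.69 and -4.37 at 144 h.

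The test of the difference itself compared the rise from 96 to 144 h. It was smaller in p53KO-emiRFP than in WT-emiRFP for 3 of 6 members, against 21.9% of all genes, with -2.80 ± 0.63 for Zscan4d (edgeR adjusted p = 1.8e-04), -2.57 ± 0.59 for Zscan4f (2.3e-04) and -1.74 ± 0.63 for Zscan4c (0.018). Tcstv3 had -2.63 ± 1.14 (0.052), Zscan4b -1.78 ± 0.79 (0.06) and Zfp352 -2.41 ± 1.34 (0.14). With the replicate number as a block 5 members passed, and by DESeq2 6. The 3 calls without the block rested on the p53KO-emiRFP library of replicate 1 at 96 h. Without it none passed by edgeR, and Zscan4c had -0.29 and Zscan4d -1.57 (adjusted p = 0.86 and 0.16). The fold change at 144 h alone does not use that library, although the library enters the shared estimate of the spread.

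Pluripotency genes moved with the members at the end of the course but not throughout. In WT-emiRFP the summed naive level was lowest at 48 h (12880 to 13724 normalized counts), when that of the members was still at 789.5 to 1017, and higher at each later time, while that of the members was lowest at 96 h (174 to 319). At 144 h the summed level of Pou5f1, Sox2, Nanog, Utf1 and Zfp42 was 80302 to 89334 normalized counts in WT-emiRFP and 16625 to 21761 in p53KO-emiRFP, a narrower gap than that of the members, whose sum was 2581 to 4049.6 against 121 to 155. All 12 naive genes were lower in p53KO-emiRFP at 144 h, with a median of -2.35, and 39 of the other 40 2-cell-like genes tested, with a median of -4.25. All genes tested had a median of -0.01. Markers of other cell types moved as well at 144 h, with 7 of 8 trophoblast and 5 of 8 primitive endoderm markers lower, 1 of each higher, and 3 of 6 mesendoderm markers higher and 1 lower. The part of the pluripotent and other cells in the result was not tested.

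**Figure D5:**
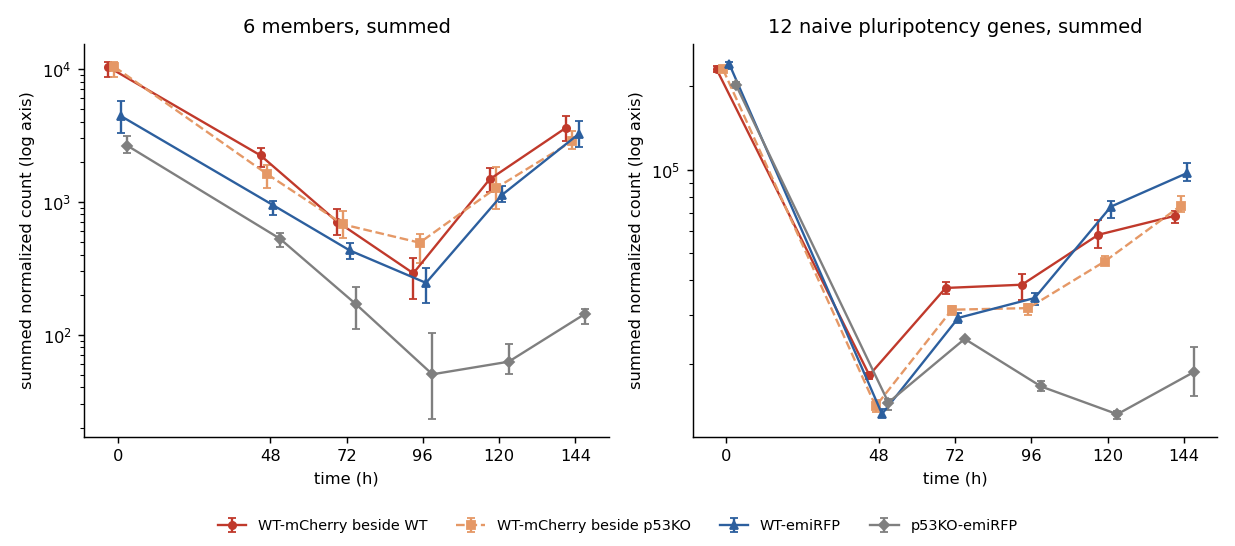
Summed normalized counts (log axes) of the 6 members and of the 12 naive pluripotency genes against time in h, with the mean of each population and bars from its lowest to its highest library. The sum of the members is lowest at 96 h in each population and that of the naive genes at 48 h in the WT ones, and both p53KO-emiRFP sums lie below those of WT cells at 144 h.

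WT-mCherry cells were sorted from both kinds of gastruloid, which differ in the genotype of the partner cells and in the number seeded, and these cannot be told apart. Averaged over the 5 times, 0 of 6 members passed between WT-mCherry beside p53KO and beside WT cells by edgeR, 0 also at an unadjusted p under 0.05 and by DESeq2, against 19.4% of all genes. The log2 fold changes were between -0.13 ± 0.13 for Zscan4d and 0.29 ± 0.17 for Zfp352. At single times 0 of 6 passed by edgeR at each, against 0.0189%, 0.260%, 3.07%, 7.70% and 26.0% of all genes from the first to the last time. At an unadjusted p under 0.05 there were 2 at 48 h, both lower beside p53KO cells (2.68% of all genes), and 3 at 96 h, all higher (9.40%). By DESeq2 1 was higher at 96 h (4.08%).

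At 48 h all 6 pointed downwards beside p53KO cells, from -0.42 ± 0.23 for Zscan4c to -0.69 ± 0.33 for Tcstv3, and the ranges of these 2 members were apart, as for 7.21% of all genes. At 96 h, when the members are at their low, all 6 pointed upwards beside p53KO cells, by 0.61 to 1.06. Zscan4c had 190.4, 179.8 and 126 normalized counts beside p53KO cells and 109.9, 110.1 and 65.7 beside WT cells. These ranges do not overlap, and the same held for 1 more member and for 14.0% of all genes. With the replicate number as a block Zscan4f (0.92 without it, edgeR adjusted p = 0.017 with it) and Zscan4c (0.80, 0.039) passed, and 5 of the other 40 2-cell-like genes passed without it. At 144 h 5 of the 6 pointed the other way, between -0.25 and -0.44, with Zfp352 at 0.14.

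The higher level of WT-mCherry over WT-emiRFP at 0 h was still present at 48 h, where all 6 members were higher (2.77% of all genes), by 0.99 ± 0.28 for Zscan4b to 1.72 ± 0.40 for Zfp352 (edgeR adjusted p = 0.022 and 0.0043). The ranges of all 6 were apart, as for 14.3% of all genes, and 2 to 4 members passed without a replicate number, the fewest without number 2. At 72, 96 and 120 h 0 of 6 passed by edgeR, against 5.96%, 2.05% and 2.43% of all genes, with 3, 0 and 1 at an unadjusted p under 0.05 and 1, 0 and 0 by DESeq2, all of them higher in WT-mCherry. The shares of all genes higher at an unadjusted p under 0.05 were 9.0% at 72 h and 6.69% at 120 h, and by DESeq2 4.33% at 72 h. At 144 h Tcstv3 was higher (0.73 ± 0.28, 0.046), where 13.1% of all genes were, and with the replicate number as a block also Zfp352 (0.66, 0.029), but none passed by DESeq2 or without any of the replicate numbers. Averaged over the 5 times 5 of 6 were higher (10.7% of all genes), by 0.54 to 0.88, and Zscan4b (0.36 ± 0.14, 0.0505) passed with the block (0.012). Whether the gap between the clones changed with time was not tested.

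Over all 23 groups the summed level of the members was highest in the WT-mCherry mES clone, at 10321 ± 1390 normalized counts (SD, n = 3), followed by the WT-emiRFP clone at 4407 ± 1261. WT-mCherry at 144 h beside WT cells (3589 ± 776), WT-emiRFP at 144 h (3221 ± 752) and WT-mCherry at 144 h beside p53KO cells (2849.6 ± 505) came next, ahead of the p53KO-emiRFP clone at 0 h (2639.9 ± 410). The lowest were p53KO-emiRFP at 144 h (143 ± 19.5), 120 h (62.5 ± 18.9) and 96 h (50.3 ± 45.7). Of the 22 pairs of neighbours in it, 20 had overlapping ranges. The WT-mCherry clone was apart from the group below it, and p53KO-emiRFP at 144 h from the same cells at 120 h.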

How the data were processed

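Libraries were stranded and poly(A)-selected. Per the submitters' processing notes and the methods of the study, the authors trimmed reads with Trim Galore 0.6.7, aligned them to GRCm38.p6 with STAR 2.7.11b and deposited raw counts of uniquely mapped reads per gene. The strand setting of the counting is not given in the sources used here, so antisense reads cannot be told apart. The table holds 69 columns and 55367 symbols, 42280 of them with a count. Among genes with a summed count of at least 20, no replicate pair had over 1.92% with equal counts.

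Counts were divided by median-of-ratios size factors (17794 genes) and tested by edgeR 4.0.16 in R 4.3.3 (quasi-likelihood test, filterByExpr by group, Benjamini-Hochberg threshold 0.05). Comparisons at 0 h used the 9 mES libraries, all others the 69 libraries with 23 groups. The fit was tested on simulated data. Alternatives were TMM scaling, no filter, the replicate number as a block, each replicate left out, fewer or more groups in the fit and DESeq2 1.42.0. Named genes were the members, up to 5 called genes per list and direction with the largest change between the mES clones, Trp53, and the 10 genes most like the members by Pearson's r of log2(normalized count + 1), among genes with a mean of at least 10. Genes given for the gastruloids or by role beyond these were chosen after their values were seen. Members and lists were chosen with earlier results of these data known.

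The replicate numbers come from the labels. Deviations from the group means were correlated between same-numbered libraries over 14106 genes with a mean of at least 50. Mean correlations were 0.149 to 0.572 over 33 pairs of groups. Numbers were taken as pairing libraries where each correlation was over 0.1. This held for p53KO-emiRFP against WT-emiRFP at every time, for the WT clones at 48, 96, 120 and 144 h (at 72 h the lowest was 0.0406) and for WT-mCherry in both kinds of gastruloid at 48, 72, 96 and 144 h. In the other comparisons made here within a time, the lowest correlation was under 0.1, and the numbers were taken as labels only. The rule was also met in pairs of groups that were not compared. P-values measure the spread between these libraries. Promoters were taken from RefSeq on GRCm38.p6, and motifs were sought with Python 3.11.15.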

Additional observations from a re-analysis of the deposited data

Results flagged for a closer look

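For 3 members the change from 96 to 144 h differed between 2 populations by a test of the difference itself, p53KO-emiRFP minus WT-emiRFP. The difference was -2.80 for Zscan4d, -2.57 for Zscan4f and -1.74 for Zscan4c on the log2 scale (edgeR adjusted p = 1.8e-04, 2.3e-04 and 0.018). These cells also came from different kinds of gastruloid, so genotype and surroundings cannot be told apart. Without p53KO-emiRFP replicate 1 at 96 h, which held more reads of the members than the others, none of the 6 passed by edgeR.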

How the results depend on the processing

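Over all alternatives, 1056 of 1189 values of single members (at single times of the WT populations, only of members called there) kept their direction and their side of the threshold, 74 lost their call, 41 gained one and 18 changed sign. All 6 members kept their calls under every alternative in p53KO-emiRFP against WT-emiRFP at 120 and 144 h.

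The following are counts of members called. For p53KO-emiRFP against WT-emiRFP, leaving out replicates gave 0 to 4 at 0 h in place of 3, 0 to 3 at 48 h in place of 3, 2 to 5 at 72 h and 3 to 5 at 96 h in place of 5. For WT-mCherry beside p53KO against beside WT cells, where none passed, no filter gave 1 at 48 h, 3 at 96 h and 3 at 144 h, the replicate block gave 2 and DESeq2 1 at 96 h, and leaving out replicates gave 0 to 1 at 96 and at 120 h. For WT-mCherry against WT-emiRFP, leaving out replicates gave 2 to 4 in place of 6 at 48 h. At 72 h, where none passed, no filter gave 4, the replicate block 2, a fit with the compared groups only 1, DESeq2 1 and leaving out replicates 0 to 1. No filter gave 2 at 120 h in place of 0. At 144 h, in place of 1, no filter gave 2, the replicate block 2, DESeq2 0 and leaving out any replicate 0. For p53KO-emiRFP from 96 to 144 h, leaving out replicates gave 0 to 4 in place of 3. For the difference in that change between p53KO-emiRFP and WT-emiRFP, in place of 3, the replicate block gave 5, a fit with the compared groups only 5, DESeq2 6 and leaving out replicates 0 to 5. The cause of these changes was not tested.

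Some values changed sign. At 0 h, leaving out replicates moved p53KO-emiRFP against WT-emiRFP from -0.0715 to 0.55 for Zfp352, with -0.025 and -0.014 among them, and from -0.60 to 0.22 for Tcstv3. In the difference between these populations from 0 to 48 h, TMM gave -0.00864 for Zscan4f, and leaving out replicates moved Zscan4f from -0.22 to 0.33, with -0.077 among them, Zscan4c from -0.11 to 0.36, Zscan4d from -0.51 to 0.031 and Tcstv3 from -0.25 to 0.46. For WT-mCherry beside p53KO against beside WT cells, averaged over times, they moved Zscan4c from -0.11 to 0.044 and Tcstv3 from -0.28 to 0.11. For Tcstv3 they gave -0.55 to 0.15 for p53KO against WT emiRFP cells of 48 h, with 0.0017 among them, and -0.53 to 1.497 for p53KO-emiRFP from 96 to 144 h, with -0.35 and -0.16 among the values.

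Beyond the counts above and those of the report, the replicate block gave 6 in place of 5 for WT-mCherry against WT-emiRFP at 0 h. The numbers there fell short of the rule for pairing, with a lowest correlation of 0.0882 and a mean of 0.192. The block also gave 4 in place of 3 for p53KO-emiRFP from 96 to 144 h, and it changed no other count. DESeq2 was not run for the tests of any change over time. Counts under 5 in p53KO-emiRFP limit Tcstv3 and Zfp352 from 96 h on.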
